A study of Mus musculus with 30 samples.

Results

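The genes described here are 6 of the 18784 measured: Cxcl1, Cxcl2, Cxcl3 and Cxcl5, Cxcr2, and Csf3. They were chosen by name, with earlier results of these data known. Each was read by 1 probe set (Entrez IDs 14825, 20310, 330122, 20311, 12765 and 12985 in that order). The 4 Cxcl genes encode small secreted chemokines that carry the ELR motif. Such chemokines bind CXCR2, a G protein-coupled receptor best known on neutrophils and also described on keratinocytes, and they draw neutrophils out of the blood into inflamed skin and glands. Csf3 encodes G-CSF, the cytokine that drives the formation of neutrophils in the bone marrow and their release. Epithelial cells, macrophages and neutrophils themselves make these ligands when IL-1, TNF, IL-17 or microbial products activate NF-kB.

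The tissue was labelled preputial gland duct, from male B6 mice that ate benzo[a]pyrene (BaP), a carcinogenic hydrocarbon of smoke, at about 12.5 mg/kg/day from 6 weeks of age. The groups were Cyp1a1/1b1 double knockouts (DKO), which lack the P450 enzymes CYP1A1 and CYP1B1, Cyp1a1 knockouts (KO), which like the DKO lack Cyp1a1, and wild-type mice (WT). Glands came from mice killed after 0, 4, 8, 12 or 16 weeks on the diet, with 2 mice in each of the 15 groups, and the question posed by the series was how expression moved while squamous cell carcinoma formed. Week 0 holds the only animals without BaP, so time on BaP and age cannot be told apart. Sebocyte markers, which define the gland, averaged 6.00 to 8.07 over the 10 DKO arrays, against 7.69 to 8.71 in KO and 8.58 to 8.98 in WT, on the log2 intensity scale used throughout (9 of 10 markers measured).

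Of the 30 arrays, 9 spanned a narrower range of values than the others, with an SD of 1.15 to 1.42 over all genes against 1.70 to 2.08, and are called low-range arrays. They were 8 of the 10 DKO arrays, all except week 0 replicate 1 and week 12 replicate 2, and KO week 12 replicate 2. Array medians lay between 5.12 and 5.47. The labels also number the mice, 1 to 20 or 22 to 33, without saying what the numbers stand for. All WT arrays and all KO arrays except week 12 replicate 2 carry the lower numbers, and all DKO arrays except week 0 replicate 1 carry the higher ones. Genotype, number range and array range can therefore hardly be told apart, whereas DKO weeks 4, 8, 12 and 16 can be set against each other within the higher numbers. Only DKO week 0 and KO week 12 hold both number ranges. Where the number range enters a fit as a block, its effect is estimated from those groups alone. In each of them the higher-numbered mouse is also the low-range array, so the block cannot separate number range from array range. No array background or detection call was given here, so differences are printed in log2 units without folds.

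The 4 ligand genes lie in 1 cluster on chromosome 5 in the RefSeq order Cxcl5, Ppbp, Pf4, Cxcl3, Cxcl15, Cxcl1, Cxcl2 (GRCm38.p6), while Cxcr2 lies on chromosome 1 and Csf3 on chromosome 11. The bases just before 3 start sites are printed because these neighbouring ligands share a promoter word and yet had different courses in the glands. Each line gives the last 100 bases before the start, plus strand, from RefSeq on GRCm38.p6, at chr5:90891145-90891244 for Cxcl1, chr5:90903799-90903898 for Cxcl2 and chr5:90786001-90786100 for Cxcl3. Capitals mark the longest word that all 3 share before their start sites (a longer one lies beyond them), 11 bases that have the form of a kB site, the element NF-kB binds.
Cxcl1: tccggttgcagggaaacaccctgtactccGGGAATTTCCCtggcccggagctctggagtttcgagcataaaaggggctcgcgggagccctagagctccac
Cxcl2: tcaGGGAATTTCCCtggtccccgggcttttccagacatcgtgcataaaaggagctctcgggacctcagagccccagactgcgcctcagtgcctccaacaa
Cxcl3: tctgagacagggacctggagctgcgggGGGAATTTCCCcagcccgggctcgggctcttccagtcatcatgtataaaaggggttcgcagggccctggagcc

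That word, GGGAATTTCCC, began at -71 from the start in Cxcl1, at -97 in Cxcl2 and at -73 in Cxcl3. Windows of 300 bases, 250 before and 50 after the start, were searched on both strands for it and for 3 other words, and 4 of the 6 genes had a window. It occurred in 14 of 32851 promoter windows (0.0426%). TATAAA (13.6% of windows) was found in the Cxcl3 window alone, at -30 to -25. GCGTG, the core of the AhR response element (32.4% of windows), was found in the Cxcl2 window alone, at -172 to -168 on the minus strand and -165 to -161 on the plus strand. The AP-1 word TGANTCA (7.81% of windows) was in none of the 4 windows, and the Cxcr2 window held none of the 4 words.

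Cxcl2, encoding the chemokine MIP-2, had the largest difference of the 6 genes in each DKO comparison over time, and its values stepped up between weeks 8 and 12. In DKO glands it measured 3.83 and 5.46 at week 0, 4.96 and 5.25 at week 4, 5.43 and 6.69 at week 8, 8.26 and 8.57 at week 12, and 10.34 and 7.29 at week 16. All 4 DKO arrays of weeks 12 and 16 stood above all 4 of weeks 4 and 8, whereas the weeks 4 and 8 arrays overlapped week 0. In KO glands Cxcl2 was 3.46 and 4.13, 3.74 and 3.41, 3.06 and 3.08, 3.75 and 3.74, and 4.22 and 3.85 over the same weeks. In WT glands it was 3.06 and 2.76, 3.10 and 3.63, 3.22 and 3.17, 4.15 and 5.11, and 3.96 and 3.96. No KO array reached the lowest DKO array on BaP, and 1 WT array, at week 12, did.

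In DKO glands Cxcl2 averaged 8.62 at weeks 12 and 16 and 5.58 at weeks 4 and 8, a difference of 3.03 ± 0.45 (SE; 4 arrays each; limma, adjusted p = 0.00286). All 8 mice carry the higher numbers, and 1 of the arrays, week 12 replicate 2, is of normal range. Arrays failed to overlap in this direction for 1.26% of all genes. The difference stayed past the threshold without any single array (2.27 to 3.80). Fitted on those DKO arrays alone, without the spread of the other genotypes, it missed the threshold (adjusted p = 0.0774). Weeks 4 to 16 together exceeded DKO week 0 by 2.45 ± 0.51 (adjusted p = 0.0192), and week 16 alone by 4.17 ± 0.64 (adjusted p = 0.00174). The weeks 4 to 16 call rested on the week 0 array with the lower value: without DKO week 0 replicate 1 the difference was 1.64 (adjusted p = 0.172). It was also just lost with the number range as a block (2.05, adjusted p = 0.0501).

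Cxcl5, encoding LIX, had a similar course with more scatter. Its DKO values were 3.45 and 4.56 at week 0, 5.17 and 5.07 at week 4, 3.60 and 6.66 at week 8, 6.04 and 8.09 at week 12, and 7.68 and 6.37 at week 16. The 2 week 8 mice were far apart, with 1 at the level of week 0 and the other within the range of weeks 12 and 16. Over weeks 4 to 16, KO values ran from 3.72 through a median of 3.94 to 4.52, after 4.07 and 3.80 at week 0. WT values ran from 3.41 through 3.66 to 3.74, after 3.54 and 3.32. At DKO week 16 Cxcl5 exceeded week 0 by 3.02 ± 0.66 (adjusted p = 0.0160), a call lost without DKO week 0 replicate 1 (2.47, adjusted p = 0.109) or week 16 replicate 1 (2.36, adjusted p = 0.151). The DKO differences for weeks 4 to 16 against week 0 (2.08 ± 0.52, adjusted p = 0.0545) and for weeks 12 and 16 against 4 and 8 (1.92 ± 0.47, adjusted p = 0.0616) missed the threshold. Both passed under quantile normalization (2.53, adjusted p = 0.0438, and 2.55, adjusted p = 0.0149) and with a variance trend and robust fit (adjusted p = 0.0406 and 0.0343), and the second passed with the number range as a block (adjusted p = 0.0251).

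Cxcl3, encoding the chemokine DCIP-1, differed by less. DKO values were 3.97 and 4.07 at week 0, 3.85 and 4.38 at week 4, 4.82 and 3.66 at week 8, 5.18 and 6.62 at week 12, and 5.85 and 4.73 at week 16. Week 12 replicate 2, a DKO array of normal range, was the highest, and early and late arrays overlapped at 4.73 and 4.82. KO values over weeks 4 to 16 ran from 3.58 through 3.86 to 4.61, after 3.69 and 4.25 at week 0, and WT values from 3.42 through 3.71 to 3.96, after 3.45 and 3.22. DKO weeks 12 and 16 exceeded weeks 4 and 8 by 1.42 ± 0.31 (adjusted p = 0.0349). The call was lost without DKO week 4 replicate 1 (1.29, adjusted p = 0.0961), week 8 replicate 2 (1.13, adjusted p = 0.102), week 12 replicate 2 (1.06, adjusted p = 0.111) or week 16 replicate 1 (1.14, adjusted p = 0.120).

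Cxcl1, encoding KC, the closest mouse relative of human GRO-alpha, showed no difference past the test over time in DKO glands. It was 5.89 and 6.04 at week 0, 6.01 and 6.35 at week 4, 6.14 and 6.07 at week 8, 6.11 and 6.25 at week 12, and 6.54 and 5.28 at week 16. The 2 week 16 mice held the highest and the lowest of the 10 values. Weeks 4 to 16 differed from week 0 by 0.13 ± 0.25 (95% interval -0.39 to 0.65; adjusted p = 0.838), and a change of the size seen for Cxcl2 lies outside that interval. In KO glands Cxcl1 was 5.68 and 5.76, 5.38 and 5.09, 5.37 and 5.54, 5.70 and 6.18, and 5.93 and 5.82 over the 5 weeks. In WT glands it was 5.12 and 4.99, 5.31 and 5.07, 5.13 and 5.20, 5.49 and 5.65, and 5.54 and 5.55. In both genotypes the arrays of weeks 12 and 16 stood above those of weeks 4 and 8, by 0.56 ± 0.22 in KO and 0.38 ± 0.22 in WT, and neither passed the test (adjusted p = 0.348 and 1). Such order of arrays held for 8.07% of all genes in KO and 3.24% in WT.

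**Figure D1:**
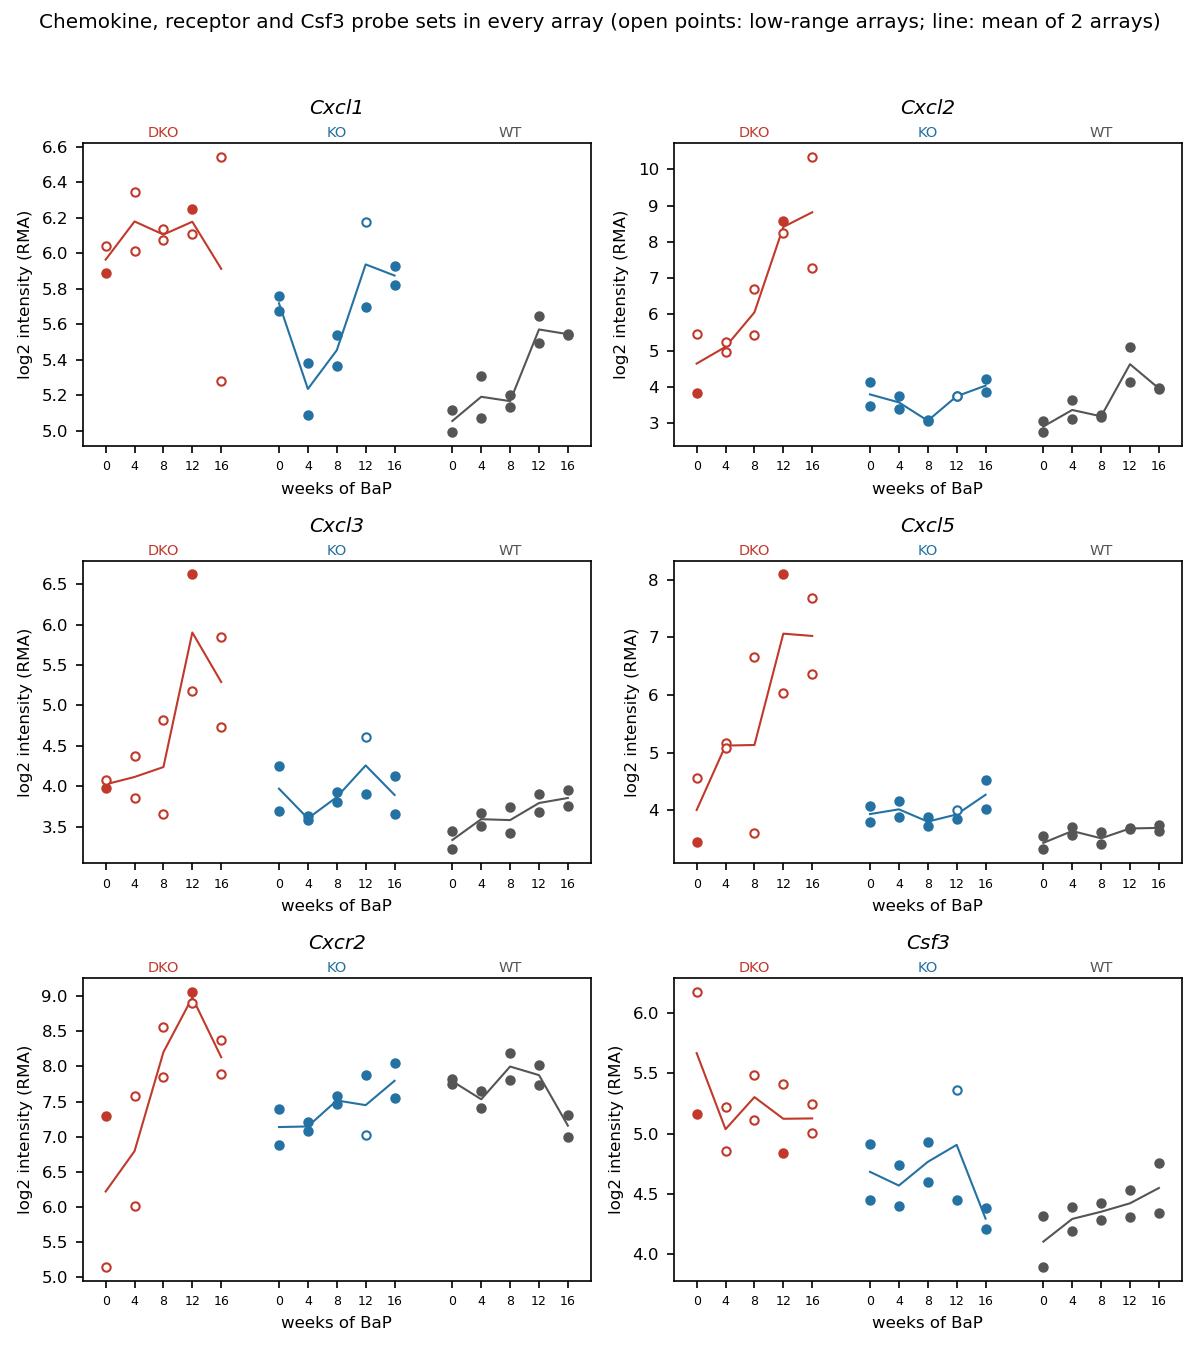
Log2 intensity of each of the 6 genes (1 panel a gene) in every array, by weeks of BaP, with DKO, KO and WT from left to right. Points are mice, open points are low-range arrays and lines join the means of 2 mice. In DKO, Cxcl2 reaches 10.34 and Cxcl5 8.09, while Cxcl1 stays between 5.28 and 6.54 and Csf3 between 4.84 and 6.18.

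Cxcr2, the receptor, was measured above the array medians in all KO and WT glands, and its DKO call rested on 1 low week 0 array. In DKO glands it was 7.29 and 5.15 at week 0, 6.01 and 7.57 at week 4, 7.85 and 8.56 at week 8, 8.90 and 9.06 at week 12, and 7.89 and 8.37 at week 16. KO values were 6.88 and 7.39 at week 0 and 7.02 through a median of 7.50 to 8.04 later, and WT values 7.75 and 7.82 at week 0 and 7.0003 through 7.69 to 8.19 later. The low-range DKO week 0 array, at 5.15, was the lowest of all 30 arrays for this gene. DKO weeks 4 to 16 exceeded week 0 by 1.81 ± 0.41 (adjusted p = 0.0338) and week 16 by 1.91 ± 0.51 (adjusted p = 0.0404). Without that array, DKO week 0 replicate 2, the differences were 0.74 (adjusted p = 0.237) and 0.84 (adjusted p = 0.220). The first call was also lost without DKO week 8 replicate 2 (1.72, adjusted p = 0.0505), and the second without week 16 replicate 1 (2.15, adjusted p = 0.102) or replicate 2 (1.67, adjusted p = 0.0970). Late DKO weeks differed from early ones by 1.06 ± 0.36 (adjusted p = 0.195).

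Csf3, the growth factor, was 5.16 and 6.18 at DKO week 0, 5.22 and 4.85 at week 4, 5.49 and 5.12 at week 8, 5.41 and 4.84 at week 12, and 5.25 and 5.01 at week 16. Both mice of every later week lay below the higher week 0 mouse. The DKO difference of weeks 4 to 16 from week 0 was -0.52 ± 0.28 (95% interval -1.11 to 0.06; adjusted p = 0.365). With the number range as a block it was -1.004, a call in the lower direction (adjusted p = 0.0398), and under quantile normalization it was -0.99 (adjusted p = 0.0981). KO values were 4.92 and 4.45 at week 0 and 4.21 through 4.53 to 5.36 later, with the highest on the low-range KO array, and WT values were 3.89 and 4.31 at week 0 and 4.19 through 4.36 to 4.76 later.

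Counted together, 2 of the 6 genes (Cxcl2 and Cxcr2) were called higher and 0 lower in DKO weeks 4 to 16 against week 0, where 0.974% of all genes were called in either direction and 0.57% higher. With the number range as a block the called genes were Cxcr2, higher, and Csf3, lower, and with median centring the Cxcr2 call was lost (1.76, adjusted p = 0.0517). At DKO week 16 against week 0, 3 genes (Cxcl2, Cxcl5 and Cxcr2) were called higher, against 4.04% of all genes in either direction and 2.04% higher, and the arrays of those 3 and of Cxcl3 did not overlap, as for 18.6% of all genes. Late against early DKO weeks called 2 genes higher (Cxcl2 and Cxcl3), against 0.628% of all genes in either direction and 0.389% higher. The median difference of the 6 genes was 1.34, 1.59 and 1.24 in these comparisons, beside 0.04, 0.04 and -0.01 over all genes. These comparisons share DKO arrays and are not separate evidence. The 6 genes were chosen with earlier results of these data known, so counts set beside the share of all genes are a description.

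In KO and WT glands 0 of the 6 genes were called over time by limma. No gene of any kind was called for weeks 4 to 16 or week 16 against week 0 (0%), although 258 and 217 genes in KO and 154 and 227 in WT had an unadjusted p under 0.05, none of the 6 among them. Late against early weeks called 1 gene (0.00532%) in each genotype, none of the 6. The smallest unadjusted p of the 6 was for Cxcl1 in KO. Its weeks 12 and 16 exceeded weeks 4 and 8 by 0.56 ± 0.22 (unadjusted p = 0.0198, adjusted p = 0.348). For Cxcl2, all 8 WT arrays on BaP exceeded both at week 0, as for 6.51% of all genes, with a difference of 0.88 ± 0.51 (adjusted p = 1). WT weeks 12 and 16 exceeded weeks 4 and 8 by 1.02 ± 0.45 (unadjusted p = 0.0351, adjusted p = 1), and 0.00282 was the adjusted p when arrays were weighted by their precision.

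Whether the change itself differed between genotypes was tested as an interaction, and 0 of the 6 genes passed. For DKO over KO, 0.0426% of all genes were called, and the extra change from week 0 to weeks 4 to 16 was 2.64 ± 0.71 for Cxcl2 (adjusted p = 0.297), 2.01 ± 0.74 for Cxcl5 (adjusted p = 0.589) and 1.47 ± 0.57 for Cxcr2 (adjusted p = 0.603). For DKO over WT, 0.0373% of all genes were called, and the extra change was 1.58 ± 0.71 for Cxcl2 (adjusted p = 0.992), 1.88 ± 0.74 for Cxcl5 (adjusted p = 0.966) and 1.96 ± 0.58 for Cxcr2 (adjusted p = 0.653). Those 3 genes were also the ones with an unadjusted p under 0.05 in each test. For KO over WT 0% of genes were called, and none of the 6 had an unadjusted p under 0.05.

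The 2 normal-range DKO arrays give a single pair that avoids the narrow arrays. Its mice lie in different number ranges, 1 to 20 at week 0 and 22 to 33 at week 12. Week 12 replicate 2 exceeded week 0 replicate 1 by 4.74 for Cxcl2, 4.65 for Cxcl5, 2.65 for Cxcl3 and 1.77 for Cxcr2, differences larger than those of all but 0.117%, 0.128%, 0.389% and 0.985% of genes. Cxcl1 differed by 0.36 and Csf3 by -0.33. With low-range arrays left out of the fit, DKO kept a lone array at week 0 and a lone array at week 12. The spread of such lone arrays could only be taken from other groups. The extra change over WT was then that of week 12 from week 0. It was 3.03 for Cxcl2, 2.19 for Cxcl3, 4.40 for Cxcl5 and 1.68 for Cxcr2. Between mice of the same group, the low-range array differed from the other by 1.64 for Cxcl2, 1.11 for Cxcl5, 1.02 for Csf3 and -2.14 for Cxcr2 at DKO week 0. At KO week 12 it differed by 0.91 for Csf3, 0.71 for Cxcl3 and -0.85 for Cxcr2, but by -0.01 for Cxcl2. What array range contributed to the DKO values was not tested.

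**Figure D2:**
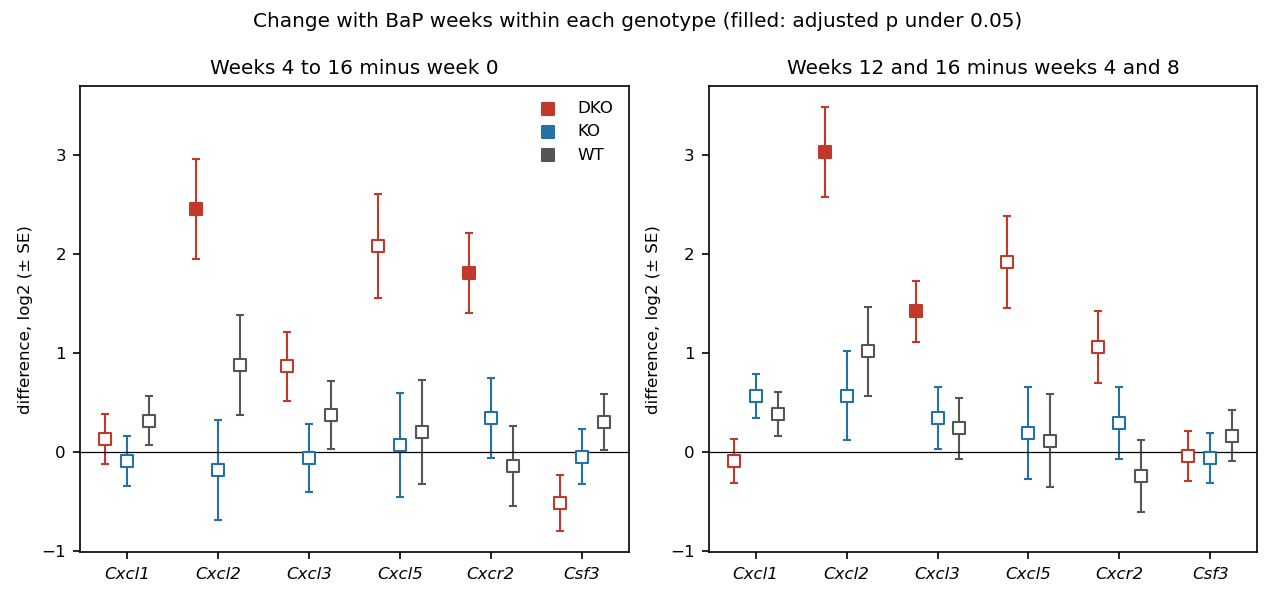
Log2 difference (± SE of the limma fit) for the 6 genes in DKO, KO and WT, as weeks 4 to 16 minus week 0 (left) and weeks 12 and 16 minus weeks 4 and 8 (right), with filled squares for adjusted p under 0.05. In DKO, Cxcl2 lies at 2.45 (left) and 3.03 (right), while Cxcl1 lies at 0.13 and -0.10.

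Set against the other genotypes over weeks 4 to 16, DKO glands were higher in 5 of the 6 genes, but most genes differed there. Against KO, where 58.9% of all genes were called (33.5% higher), Cxcl2 exceeded by 3.49 ± 0.32 (adjusted p = 3.56e-07), with no overlap of arrays, as for 1.12% of all genes. Cxcl5 (2.08), Cxcl3 (0.98), Csf3 (0.51) and Cxcl1 (0.47) were also called, and Cxcr2 was not (0.55 ± 0.26, adjusted p = 0.0697). Against WT, where 71.5% of all genes were called (41.5% higher), Cxcl2 exceeded by 3.31 ± 0.32 (adjusted p = 8.48e-08), Cxcl5 by 2.45, Cxcl3 by 1.18, Csf3 by 0.74 and Cxcl1 by 0.73, while Cxcr2 differed by 0.39 ± 0.26 (adjusted p = 0.180). The median of all genes was itself shifted by 0.19 over WT and 0.15 over KO. With the number range as a block, Cxcr2 alone was called over WT (1.88, adjusted p = 0.0425) and Cxcl2 missed (2.50, adjusted p = 0.0820). Csf3 turned to -0.22 over WT and -0.33 over KO. That block rests on DKO week 0 and KO week 12, where the low-range array differed from its mate by -2.14 and -0.85 for Cxcr2. Over KO, Cxcl2 (2.78, adjusted p = 0.0419) and Cxcr2 (1.86, adjusted p = 0.0348) were called with that block. Quantile normalization called Cxcr2 over KO (1.27, adjusted p = 0.00209) and over WT (1.31, adjusted p = 0.000960). It lost Cxcl3 (0.52, adjusted p = 0.173, over KO and 0.50, adjusted p = 0.163, over WT) and Csf3 (0.22, adjusted p = 0.452, and 0.32, adjusted p = 0.235). Without low-range arrays only week 12 was left to compare, with a lone DKO array and a lone KO array. On that DKO array Cxcr2 exceeded both KO and WT by 1.19, and Cxcl1 exceeded KO by 0.55.

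Between KO and WT glands over weeks 4 to 16, no difference in these genes passed the test. Differences ran from -0.18 ± 0.32 for Cxcl2 to 0.37 ± 0.33 for Cxcl5, and 0 of the 6 were called, against 1.5% of all genes. Cxcl5 passed where only normal-range arrays entered (0.35, adjusted p = 0.0338).

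Neutrophil markers are set beside these results because CXCR2 ligands recruit neutrophils and some of the markers rose in the same DKO glands. In bulk tissue, more cells of a type and more RNA per cell cannot be told apart. Of the 17 of 18 markers measured, 4 were called higher and 0 lower in DKO weeks 4 to 16 against week 0, where 0.57% of all genes were called higher. They included S100a8 (4.63 ± 0.70, adjusted p = 0.00200) and S100a9 (3.83 ± 0.87, adjusted p = 0.0355), the calprotectin subunits that activated keratinocytes make too. The others were Clec4e (2.49), a receptor for microbial glycolipids, and Mmp8 (1.496), the neutrophil collagenase. Mmp8 was higher on the low-range array of a group, at 4.41 against 2.99 at DKO week 0 and 4.63 against 2.99 at KO week 12. The normal-range DKO array of week 12 had Mmp8 at 4.70. S100a8, S100a9 and Clec4e were also higher on the low-range array in both groups. At KO week 12 they were 5.76 against 4.10, 6.28 against 4.63 and 4.46 against 3.75. The normal-range DKO array of week 12 had them at 10.83, 11.18 and 7.93. The part of array range in the calls of these markers was not tested. Among the markers not called, Csf3r, the G-CSF receptor, differed by 0.32 ± 0.34 (adjusted p = 0.673) and Ly6g by 0.18 ± 0.46 (adjusted p = 0.883). Neutrophil elastase Elane differed by 0.54 ± 0.33 (adjusted p = 0.430) and myeloperoxidase Mpo by 0.78 ± 0.23 (adjusted p = 0.0947). Differences were positive for 14 of the 17 markers, with a median of 0.55 beside 0.04 over all genes. At week 16, 5 of the 17 were called higher than at week 0 and 0 lower (2.04% of all genes were called higher): S100a8, S100a9, Clec4e, Mmp8 and Clec4d, a receptor related to Clec4e. Csf3r differed there by 0.19 and Ly6g by -0.18. Late against early weeks called 4 of the 17 higher (S100a8, S100a9, Clec4d and Clec4e) and 0 lower, beside 0.389% of all genes called higher.

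S100a8 measured 3.85 and 4.61 in DKO glands at week 0, 4.39 and 4.66 at week 4, 6.90 and 11.53 at week 8, 10.78 and 10.83 at week 12, and 12.11 and 9.72 at week 16, so the same mouse was the higher of its pair for S100a8 and Cxcl2 at each week. The mean of the 17 markers lay between 4.73 and 6.16 in DKO weeks 4 to 16 and between 4.37 and 4.88 at DKO week 0. It was 4.22 to 4.97 in KO weeks 4 to 16 and 4.31 to 4.32 at KO week 0, and 4.09 to 4.36 and 3.86 to 4.25 in WT. In those WT glands Cxcr2 was at 7.0003 to 8.19. The part of neutrophil number in any of these values was not tested.

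**Figure D3:**
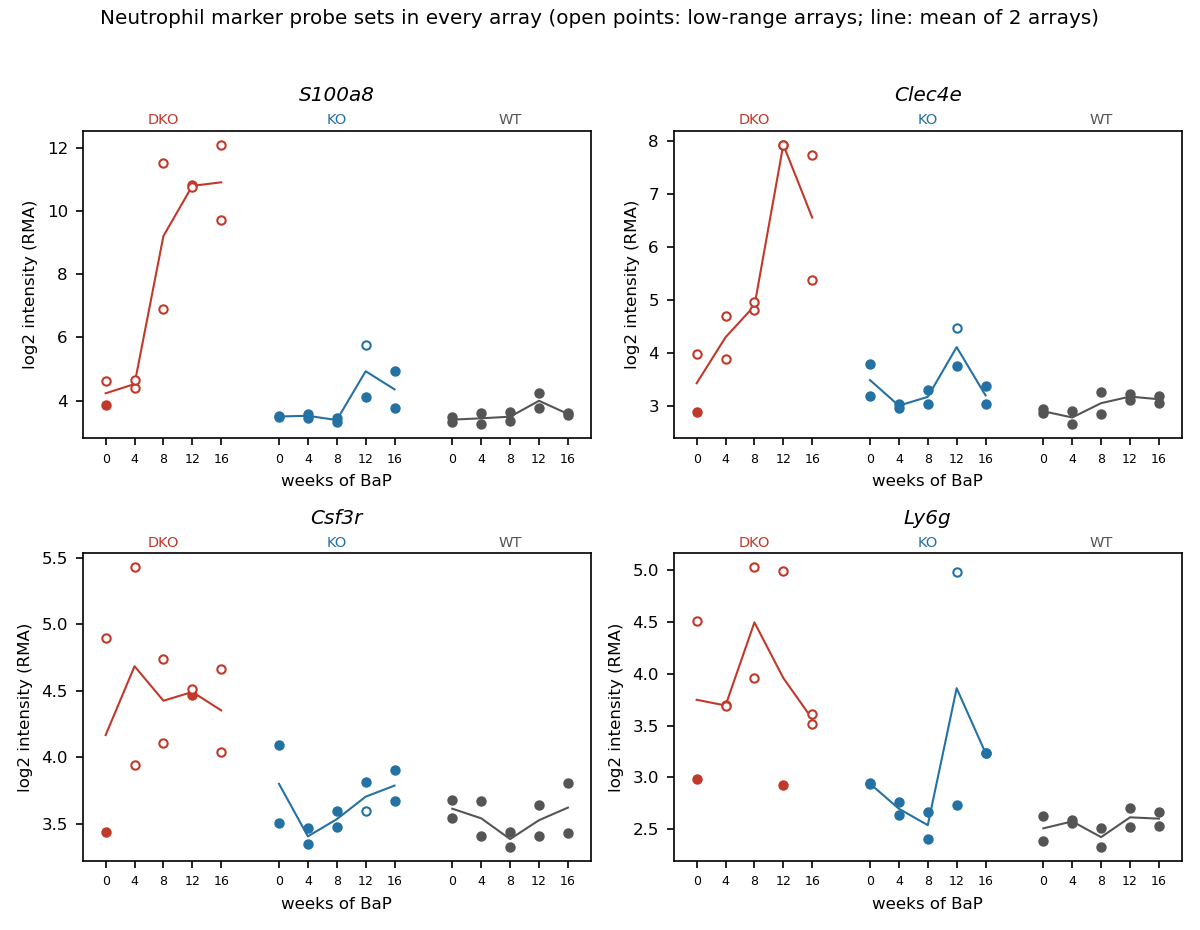
Log2 intensity of 4 neutrophil markers in every array by weeks of BaP, with DKO, KO and WT from left to right, points as mice, open points as low-range arrays and lines as means of 2 mice. In DKO, S100a8 lies at 6.90 or higher from week 8 on and reaches 12.11, and the highest values of S100a8, Csf3r and Ly6g are all on low-range arrays.

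Other cell types moved as well. Keratinocyte markers averaged 7.39 to 9.56 in DKO weeks 4 to 16 and 7.44 to 7.56 at DKO week 0, with 2 of 9 called higher (0.57% of all genes), the suprabasal keratins Krt1 and Krt10. At week 16 Krt6a, a keratin of activated epidermis, was called higher as well, 3 of 9 in all (2.04% of all genes). Macrophage markers averaged 5.87 to 7.81 in DKO weeks 4 to 16 and 5.93 to 6.60 at week 0, with 0 of 8 called. At week 16 against week 0, 2 of the 8 were called higher (2.04% of all genes), the complement chains C1qa (1.06) and C1qc (1.75). The median of the 8 was 0.88, beside 0.04 over all genes. In late against early DKO weeks 2 of the 8 were called higher (0.389% of all genes), C1qa (1.04) and the lysozyme gene Lyz2 (2.14). The median was 0.89. All 8 differences were positive in both comparisons. Fibroblast markers too had all 7 differences positive in late against early DKO weeks (median 0.71). At week 16 against week 0, 6 of the 7 fibroblast markers were positive (median 0.47), and 0 were called in either comparison. At DKO week 16, 2 of 9 sebocyte markers were called lower, the wax synthase Awat2 and the lipid droplet protein Plin2. Of all genes 4.04% were called there in either direction. Endothelial, fibroblast, mast cell and muscle markers had 0 called in DKO weeks 4 to 16 against week 0 (of 6, 7, 5 and 4). Of all genes 0.974% were called there in either direction. The share of each cell type in the chemokine values was not tested.

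The rest of the pathway was read from lists of other ligands, receptors, inducers, NF-kB and C/EBP genes, adhesion molecules and marrow retention genes. In DKO weeks 4 to 16 against week 0, 0 of 47 measured genes passed in either direction, beside 0.974% of all genes. Among 7 other ligands, Ppbp, the platelet chemokine next to Cxcl5 in the cluster, differed by 2.44 ± 0.88 (adjusted p = 0.175), its neighbour Pf4 by 1.19 (adjusted p = 0.194) and the macrophage factor Csf1 by 0.77 (adjusted p = 0.197). Among 8 other receptors, the complement receptor C5ar1 differed by 1.502 (adjusted p = 0.0625), the formyl peptide receptor Fpr2 by 0.91 (adjusted p = 0.341) and the decoy receptor Ackr1 by -0.44 (adjusted p = 0.415). Of 6 adhesion genes the integrin chain Itgam differed by 0.78, and the selectins Selp and Sele by 0.40 and 0.27, none past the test.

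At DKO week 16, genes from the list of inducers were among those called, and their part in the chemokine values was not tested. Of 13 inducers measured, 4 were called higher and 0 lower, where 2.04% of all genes were called higher: the alarm cytokine Il1b (2.27 ± 0.55, adjusted p = 0.0249), Il17a, the T cell cytokine that induces these chemokines in epithelium (1.74 ± 0.44, adjusted p = 0.0312), the lipopeptide receptor Tlr2 (1.44 ± 0.30, adjusted p = 0.0130) and Il6 (1.29 ± 0.36, adjusted p = 0.0453). Fpr2 was called as well among the receptors (2.09 ± 0.59, adjusted p = 0.0488). Both week 16 arrays are low-range, and Il17a was higher on low-range arrays of the same group: 5.35 against 4.00 at DKO week 0 and 6.10 against 4.69 at KO week 12. The normal-range DKO array of week 12 had Il17a at 4.64, beside 4.69 on the normal-range KO array and 4.05 and 4.21 in WT that week. Fpr2 too was higher on the low-range array, at 6.56 against 3.78 at DKO week 0 and 4.78 against 4.03 at KO week 12. The normal-range DKO array of week 12 had Fpr2 at 7.68, and the week 16 arrays had 7.91 and 6.62. The part of array range in the Il17a and Fpr2 calls was not tested. The median of the 13 inducers was 0.57, beside 0.04 over all genes. At week 16, 0 of 11 NF-kB and C/EBP genes were called, beside 4.04% of all genes in either direction. In late against early DKO weeks Il1b (1.82 ± 0.39, adjusted p = 0.0305), Fpr2 (2.53 ± 0.42, adjusted p = 0.00559), Nfkbia, the NF-kB inhibitor that NF-kB itself induces (0.96 ± 0.20, adjusted p = 0.0278), and Cxcl12, which holds neutrophils in the marrow (1.16 ± 0.24, adjusted p = 0.0292), were called higher. Rela, Nfkb2 and Bcl3 were not called in any of these comparisons. In KO and WT glands no listed gene was called over time. Even so, WT Il1b was 5.86 and 7.24 at week 12 and 6.13 and 6.62 at week 16. Those WT values lay above 5.11 and 5.37 at week 4 and 4.60 and 4.57 at week 8. Such order of arrays held for 3.24% of all genes in WT. The late and early KO arrays overlapped for Il1b.

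**Figure D4:**
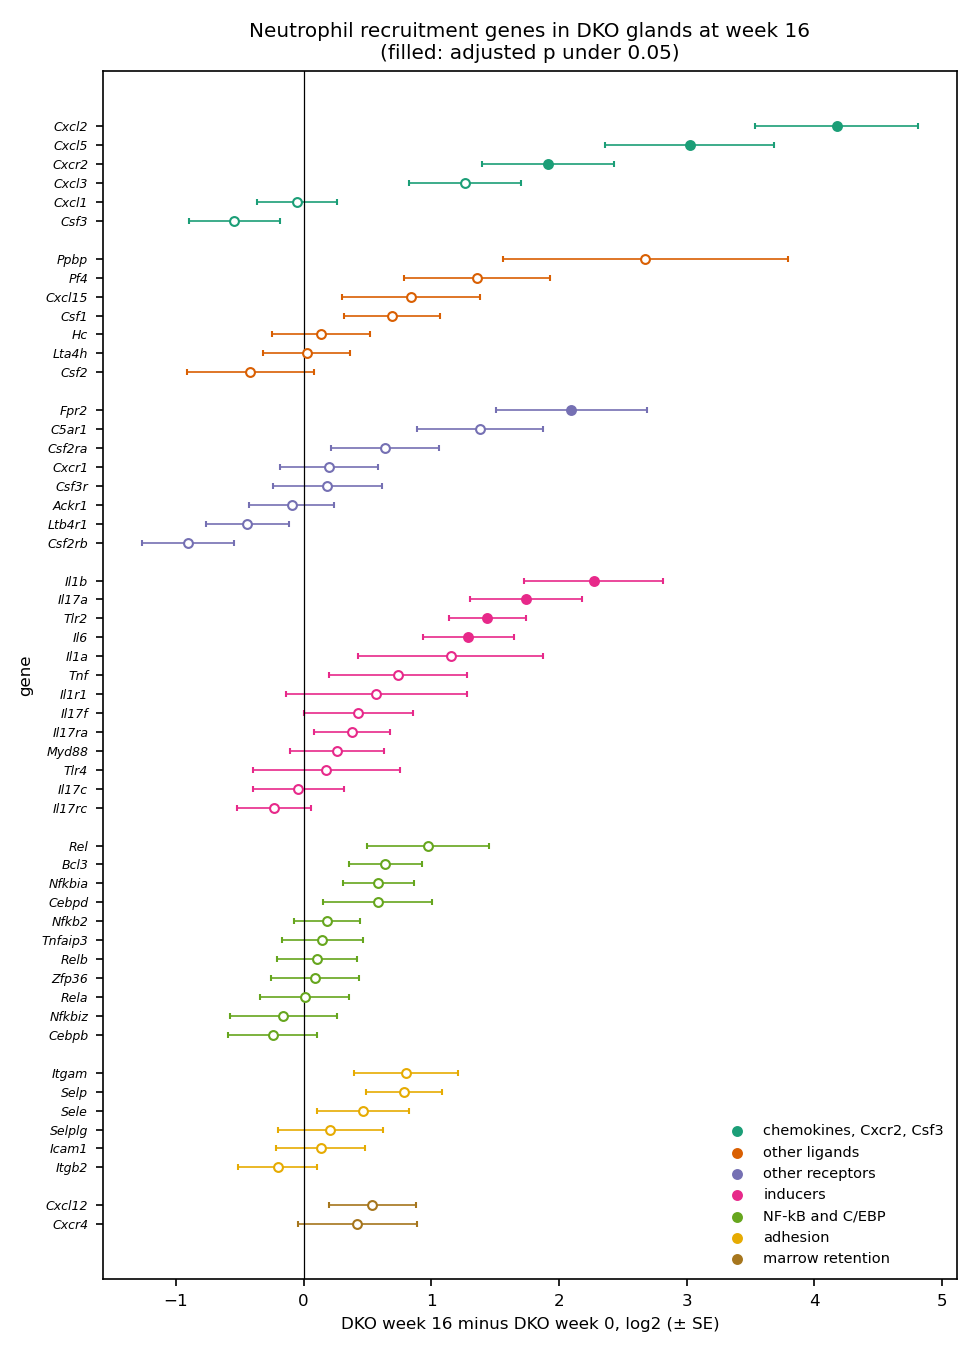
Log2 difference of DKO week 16 from week 0 for the 6 genes and the measured genes of the pathway lists, grouped by role, ± SE, with filled points for those called at adjusted p under 0.05. Cxcl2 stands farthest right at 4.17, and Il1b, Il17a, Tlr2 and Il6 are the called inducers.

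Genes with the most similar profile over the 30 arrays were ranked by Pearson r, which is mostly set by the DKO arrays and what they share, array range included. For Cxcl2 they were Clec4d (0.94), Saa3 (0.93) and S100a8 (0.93), and r over the 21 normal-range arrays was 0.93, 0.95 and 0.94. For Cxcl3 they were Tfec, Clec4e and Saa3 (0.88 to 0.89). For Cxcl5 they were the epithelial proteases Tmprss11b (0.95) and Tmprss11d (0.94) and the stress keratin Krt6b (0.93). Over normal-range arrays r was 0.88 to 0.97 for the genes named with Cxcl3 and Cxcl5. Cxcr2 lay nearest to Pdzk1ip1 (0.81), Calm4 (0.81) and Dmkn (0.79), with r = 0.59, 0.77 and 0.49 over normal-range arrays. For Cxcl1 (Col27a1, Hmx3 and Rasgef1c, all 0.88) and Csf3 (Elavl4 0.89, Tmsb15a and Hspb3 0.88) the nearest genes were none of those named for the other 4. Over normal-range arrays r was 0.82, 0.82 and 0.81 for the Cxcl1 genes and 0.67, 0.62 and 0.61 for the Csf3 genes. Among the 6 themselves r was 0.91 for Cxcl2 with Cxcl5, 0.83 for Cxcl2 with Cxcl3 and -0.34 for Cxcr2 with Csf3.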

How the data were processed

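Per the submitters' processing notes the authors used RMA (background correction, quantile normalization and probe summary, version not given), and what they deposited is a log2 intensity for each probe set and mouse. No annotation build is named in the sources used here. The platform annotation gave 1 symbol to 18786 of 21212 probe sets, several to 6 and none to 2420. A gene with several probe sets was read from the brightest, leaving 18784 genes and no filter on low values.

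limma 3.58.1 (R 4.3.3) fitted 15 group means over all 30 arrays, which share 1 estimate of spread, and two-sided p-values were adjusted by Benjamini-Hochberg over all genes within each of the 15 comparisons. Genes with an adjusted p under 0.05 are called. Nothing in the labels ties same-numbered replicates to each other, and deviations of same-numbered arrays correlated between -0.55 and 0.67 over 105 pairs of groups (median -0.02, 16 over 0.1), so replicate numbers were not used to pair mice. The p-values measure spread between 2 mice per group.

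The members, gene lists and tests were chosen with earlier results of these data known. Named beside the members were the 3 genes per pathway list with the smallest adjusted p in DKO weeks 4 to 16 against week 0, defining neutrophil markers, and the 3 genes most correlated with each member. The shared promoter word was the longest found before the start in all 3 ligand windows. That limit was set after a shorter and a looser kB word had been searched, and after a longer shared word had been seen beyond the start, so the word was chosen with the kB form in view and its share of windows is a description. Other genes that passed a test were named after their values were seen. Other normalizations, a filter at the 30th percentile, array weights, blocks and left-out arrays were tried. The number of arrays limits the precision. The fit was tested on simulated data.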

Additional observations from a re-analysis of the deposited data

How the results depend on the processing

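Of 1974 recomputed values of single members, 1833 kept their direction and side of the threshold, and 36 changed sign. Of those 36, 3 were called as reported, all of them Csf3 in DKO, and 0 were called under the alternative. The number of the 6 genes called for DKO weeks 4 to 16 against week 0 (2), week 16 against week 0 (3) and late against early weeks (2) was the same with the replicate number as a block (2, 3 and 2), as were those over WT and KO (5 and 5), so the replicate block changed no call count. Array weights gave 0, 0 and 1 within DKO, 3 over KO and 2 for late WT weeks. Fitting only the groups compared, and fitting only mice numbered 22 to 33, both gave 0, 0 and 0 within DKO, with fewer arrays to estimate the spread. Over KO, mice 22 to 33 leave a lone KO array, at week 12, so no count is given. Only the groups compared gave 1 for KO over WT. Quantile normalization gave 3, 3 and 3 within DKO, 4 over WT and 4 over KO, and a variance trend with robust fit gave 3, 3 and 3, 5 and 5. Median centring gave 1, 2 and 2 within DKO and 3 over KO. A low-value filter, which removed Cxcl3 and Cxcl5, gave 2 at DKO week 16, 1 late against early, 3 over WT and 3 over KO. The number range as a block gave 2 for DKO weeks 4 to 16, with Cxcl2 lost and Csf3 called lower, 4 late against early, 1 over WT, 2 over KO and 1 for the change over WT. Without low-range arrays DKO kept a lone array at week 0 and a lone array at week 12, so no counts are given for it. Leaving out 1 array at a time gave 1 to 3 in each DKO comparison over time, 0 to 1 for late KO weeks and 0 to 1 for the change over WT and over KO. Where no value shows the cause, it was not tested.

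Csf3, called higher over WT (0.74) and over KO (0.51), turned negative and uncalled with the number block (-0.22 and -0.33). Within numbers 22 to 33 KO holds a lone array, a low-range one of week 12. There Csf3 in DKO at that week differed from KO by -0.24. The other values that changed sign were not called as reported. Under quantile normalization they were Cxcl3 0.028 (KO weeks 4 to 16), Cxcr2 0.0086 (WT weeks 4 to 16), Cxcl1 0.082 (DKO week 16), late KO Cxcl3 -0.034 and Cxcl5 -0.21, KO over WT Cxcl3 -0.016 and Cxcr2 0.044, and the Cxcl1 change of DKO over WT 0.071. With the number block they were Cxcl1 -0.028 in DKO and Cxcl5 -0.0098 in KO (weeks 4 to 16) and Cxcr2 0.023 for KO over WT. With 1 array left out, Cxcl1 ran from -0.028 to 0.29 (DKO weeks 4 to 16), -0.68 to 0.58 (week 16) and -0.41 to 0.22 (late against early), and Csf3 from -0.19 to 0.099 (late DKO), -0.29 to 0.16 (late KO), -0.28 to 0.19 (KO weeks 4 to 16) and -0.98 to 0.035 (change over KO). In KO weeks 4 to 16, Cxcl2 ran from -0.52 to 0.14, Cxcl3 from -0.35 to 0.21 and Cxcl5 from -0.066 to 0.21. At KO week 16, Cxcl2 ran from -0.090 to 0.57 and Cxcl3 from -0.36 to 0.20, and the Cxcl5 change of KO over WT from -0.26 to 0.0076.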
